A study of Mus musculus with 15 samples.

Results

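The nuclear genes for the subunits of oxidative phosphorylation were followed across 5 sorted populations of non-haematopoietic cells from mouse white adipose tissue (WAT) and lung. The genes were taken by name, as every symbol in the deposited table that began with Nduf, Sdha, Sdhb, Sdhc, Sdhd, Uqcr, Cox4, Cox5, Cox6, Cox7, Cox8 or Atp5. This gave 84 of the 10222 genes listed, read from 91 transcripts. They were 7 core and 27 accessory subunits of complex I, the 4 subunits of complex II, 8 of complex III, 15 of complex IV and its close relatives, 15 of ATP synthase, and 8 assembly factors and ATP5S relatives that share the prefixes. Ndufa7 was listed only under non-coding transcript identifiers. The mitochondrially encoded subunits, and Cox4i2, Cox7a1, Cox8b and Cox8c, were not analysed here.

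All cells came from C57BL/6 mice that were heterozygous for the Il33-citrine reporter, which marks cells transcribing Il33, and no group was treated. Their ages are not given in the sources used here. Mesenchymal stem-like cells (MSCs) were negative for lineage markers, CD45, Epcam, CD31 and CD24, and positive for PDGFRα, CD34, Sca1 and Podoplanin. From WAT, which the labels call mesenteric, they were split by reporter into Il33+ WAT-MSCs and Il33- WAT-MSCs. The lung gave lung Il33+ MSCs and Epcam+ epithelial cells, and WAT gave CD31+ endothelial cells. Each population had 3 libraries, from independent experiments, which were made with an RNA amplification kit and sequenced over 2 lanes. The libraries held between 42711843 and 60773158 alignments. Values are RPKM, reads per kilobase of transcript scaled to the size of the library, summed over the transcripts of a gene.

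The respiratory chain sits in the inner mitochondrial membrane. Complex I takes electrons from NADH and complex II takes them from succinate, complex III passes them to cytochrome c, and complex IV hands them to oxygen. Complexes I, III and IV pump protons as they do so, and ATP synthase uses the returning protons to make ATP. Most subunits are used in every tissue, but several of complex IV exist as pairs of genes, of which 1 member is known from heart, skeletal muscle or testis. In the lung, the surfactant-producing alveolar cells and the ciliated cells of the airway are known to be rich in mitochondria.

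Each population was highest in its own markers. The 8 lung epithelial markers summed to between 162043 and 209515 RPKM in epithelium and to at most 543.6 elsewhere, and the 8 endothelial markers to between 532.2 and 577.4 in endothelium and at most 90.1 elsewhere. The 8 stromal markers summed to between 1771 and 3717 in the WAT endothelial libraries, against 133.4 to 216.2 in epithelium. None of the 5 adipocyte markers was listed. In epithelium a single gene, Scgb1a1 of the airway secretory cells, took between 57.7% and 62.9% of the summed RPKM of a library, and at most 0.248% in the other 12 libraries. The first WAT endothelial library stood apart, with 10.9% of transcripts at 0 against 1.87% to 7.41% in the others.

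The 84 genes differed widely in level. Atp5b, the catalytic beta subunit of ATP synthase, was the most abundant by the mean of the 5 population means, at 95.0 RPKM, and Atp5a1, the alpha subunit, followed at 59.6. Cox7a2l, a Cox7a relative that helps join complexes III and IV, came next at 52.9, then Cox8a at 48.6 and Cox6a1 at 45.6. Among the other groups the most abundant were Ndufb9 (13.3 RPKM) of the complex I accessory subunits, Sdha (27.3) in complex II and Uqcrh (33.4) in complex III. The 5 most abundant genes carried between 26.7% and 30.8% of the summed RPKM of all 84 in each population. At the low end stood Cox6a2 at 1.06 RPKM and Atp5sl at 0.926.

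**Figure D1:**
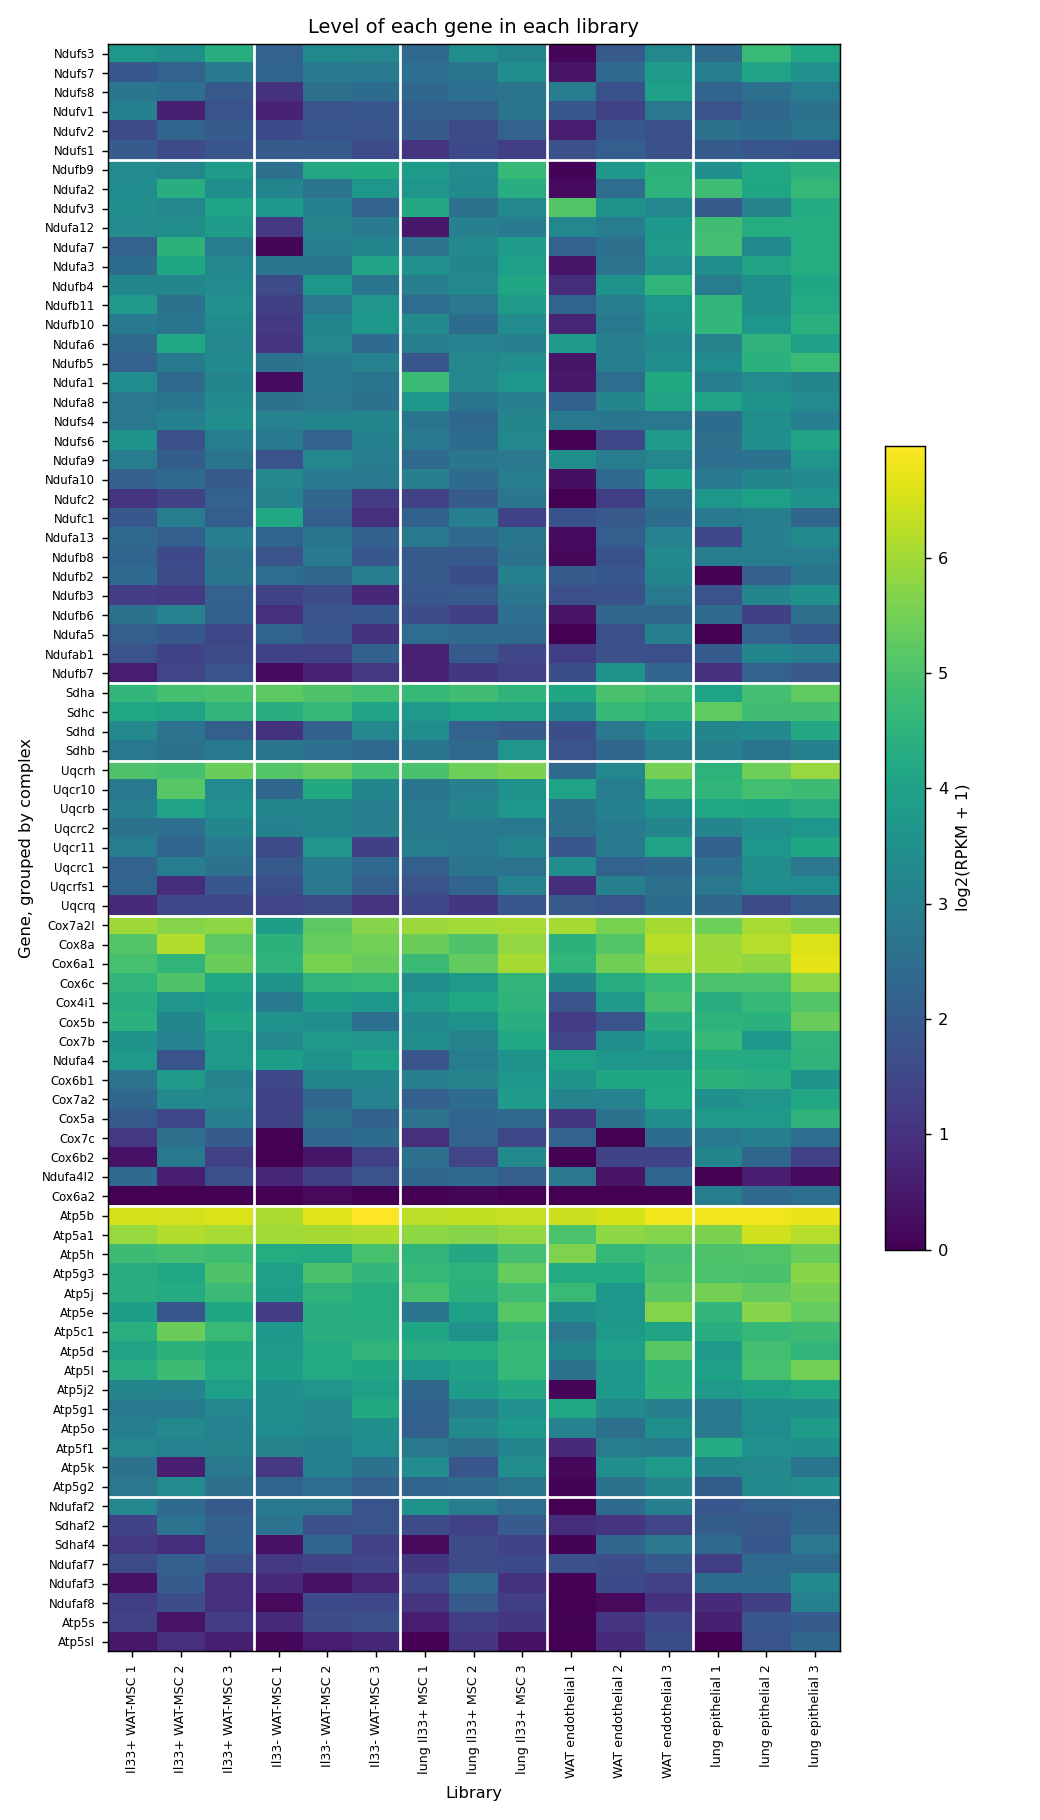
Level of 83 of the genes, as log2(RPKM + 1), in each of the 15 libraries, with genes grouped by complex (white horizontal lines, from complex I core at the top to assembly factors at the bottom) and libraries by population (white vertical lines). Atp5b was bright throughout, Cox6a2 was dark outside the 3 epithelial libraries, and the first endothelial library was dark for many genes, 31 of which lay under 1 RPKM.

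Summed over the 84 genes, lung epithelium stood above the stromal populations. The sum was 971.8 ± 66.3 RPKM (mean ± SD, n = 3) in Il33+ WAT-MSCs, 868.2 ± 178 in Il33- WAT-MSCs, 947.4 ± 192 in lung Il33+ MSCs and 929.5 ± 384 in WAT endothelium. In epithelium it was 1436 ± 239, from libraries of 1206, 1420 and 1683. These lay above all 9 stromal libraries, of which the highest reached 1169, but the third endothelial library, at 1358, overlapped them. After median-ratio scaling, which sets each library by the median ratio of its genes to their means over libraries, the epithelial libraries lay at 1553, 1805 and 1834 and no other library passed 1090. As a share of all summed RPKM the epithelium was instead the lowest, at 0.477% ± 0.0571 against 0.507% to 0.624%. With Scgb1a1 left out of the total its share was 1.21% ± 0.0611, against 0.508% to 0.625%, so the place of the epithelium depended on how a library was scaled.

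**Figure D2:**
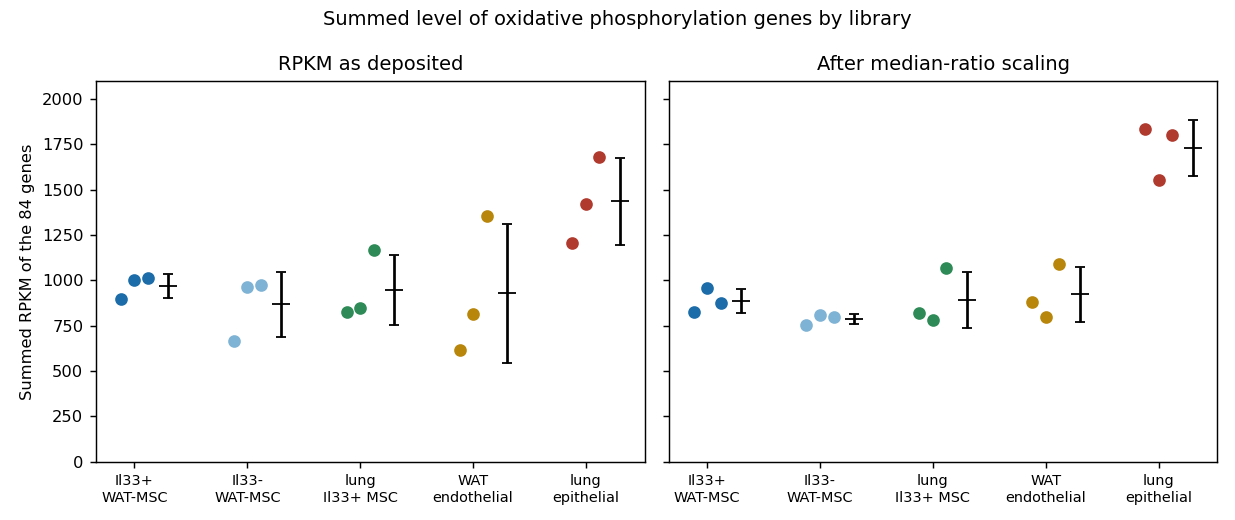
Summed RPKM of the 84 genes in each library (points) with the population mean and SD (bars, n = 3), as deposited on the left and after median-ratio scaling on the right. The 3 epithelial libraries lay between 1206 and 1683 as deposited and between 1553 and 1834 after scaling, and the endothelial libraries were the most spread as deposited.

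The populations were also ordered gene by gene. Epithelium had the highest population mean for 61 of the 84 genes as deposited and for 71 after median-ratio scaling, where 28.6% and 37.4% of all genes had theirs in epithelium. All 3 epithelial libraries lay above the other 12 for 12 genes as deposited, which were Atp5f1, Atp5j, Cox5a, Cox5b, Cox6a2, Ndufa12, Ndufa4, Ndufaf3, Ndufc2, Ndufv2, Sdhc and Uqcrb, and for 25 after scaling. Of all genes, 12.6% and 15.8% did so, and the 12 of 84 as deposited were near that share. Il33- WAT-MSCs had the lowest mean most often, for 31 of the 84 under either scaling, where 15.2% and 19.1% of all genes did. Their first library was the lowest of the 3, with a sum of 663.2 RPKM against 965.8 and 975.6 as deposited. It had 14 of the 84 genes under 1 RPKM, or 16.7%, beside 27.1% of all genes. The others had 5 each, or 5.95%, beside 18.7% and 18.8% of all genes. The part of the first library in the count was not tested. Over all genes epithelium was lowest most often, for 40.2% and 30.1%.

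The stromal populations were compared first by reporter state, Il33+ over Il33- WAT-MSCs. No gene of the 81 tested passed an adjusted p of 0.05 in limma, where 0.923% of all genes tested were called higher and 0.651% lower. At an unadjusted p under 0.05 there were 5 higher (6.17%) and 2 lower (2.47%), beside 6.19% and 5.41% of all genes. The median log2 fold change, here and below on the log2(RPKM + 1) scale, was 0.14 for these genes and -0.01 for all genes, with a median SE of 0.38 for a single gene. Without the first Il33- library these medians were 0.008 and -0.12.

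Among the 81 genes, Ndufa10, an accessory subunit of complex I, had the lowest adjusted p of this comparison as deposited. It lay at 3.36, 4.32 and 3.03 RPKM in Il33+ and at 8.68, 6.46 and 6.27 in Il33- WAT-MSCs. The libraries did not overlap, but the log2 fold change of -0.83 ± 0.30 (SE) had an adjusted p of 0.28 in limma. Ndufb6 and Ndufa12, also accessory subunits, were higher in Il33+ cells without overlap. Their log2 fold changes were 1.08 ± 0.39 and 1.17 ± 0.46, with adjusted p of 0.28 and 0.34 in limma. Ndufs3, a core subunit of the hydrogenase-like arm, was at 11.8, 10.1 and 19.8 RPKM in Il33+ and 3.54, 8.96 and 8.41 in Il33- cells, with an adjusted p of 0.35. For Atp5c1, the gamma subunit that turns within ATP synthase, the values were 20.4, 40.8 and 24.9 against 12.1, 19.7 and 19.9, with an adjusted p of 0.43. In all, the libraries did not overlap for 7 genes that were higher and 2 that were lower, where 8.84% and 8.65% of all genes tested did so. After median-ratio scaling these were 8 and 2, against 9.87% and 9.62% of all genes, and 0 genes were called, against 1.38% higher and 0.999% lower. The most abundant gene, Atp5b, was at 91.3 ± 2.6 and 96.9 ± 28.4 RPKM.

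Between tissues, lung over WAT Il33+ MSCs, again none of the 82 genes tested was called, where 3.5% of all genes were called higher and 2.5% lower in limma. At an unadjusted p under 0.05, 2 were higher (2.44%) and 4 lower (4.88%), both under the 8.86% and 8.51% of all genes. The median log2 fold change was 0.04 against -0.03 for all genes. Ndufa12, an accessory subunit of the hydrophilic arm, had the largest fold change among these. It was at 0.38, 7.16 and 6.22 RPKM in lung and 9.24, 9.79 and 13.35 in WAT, without overlap, and its log2 fold change of -1.43 ± 0.57 had an adjusted p of 0.23. Ndufs3 was at 4.20, 10.03 and 7.88 in lung, against the WAT values above, with an adjusted p of 0.22. With the lane as a covariate in the model these genes, Ndufa12 and Ndufs3, were called lower in lung, with adjusted p of 0.035 and 0.032 in limma. They made up 2.44% of the 82, near the 1.99% of all genes called lower in that model. The libraries did not overlap for 2 genes that were higher and 6 that were lower, where 11% and 12.1% of all genes did so. After median-ratio scaling these were 2 and 5, against 12.6% and 10.2%, and 0 genes were called, against 3.95% higher and 2.3% lower.

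WAT endothelium over Il33+ WAT-MSCs also gave no call among 82 genes tested, where 3.34% of all genes were called higher and 0.565% lower in limma. There were 0 higher and 2 lower (2.44%) at an unadjusted p under 0.05, against 7.51% and 7.89% of all genes. The 2 were Atp5c1, at 5.73, 12.97 and 15.79 RPKM in endothelium against the stromal values given above, and Ndufs3, at 0.07, 2.84 and 8.54. Their log2 fold changes were -1.29 ± 0.42 and -2.08 ± 0.72, with adjusted p of 0.16 and 0.19. Fitted with all 15 libraries at once, Atp5c1 was called lower, with an adjusted p of 0.042 in limma. This was 1.19% of these genes, against 3.16% of all genes. The endothelial libraries also carried the stromal markers given above, and mesothelial markers at 44.8 to 140.7 RPKM against 23.0 to 70.5 in Il33+ WAT-MSCs. The 2 muscle markers listed summed to 16.7 to 28.0 there against 2.13 to 3.19, and the 5 leukocyte markers to 15.6 to 157.1 against 6.70 to 12.9. The part of these in the levels was not tested.

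The endothelial values turned on single libraries. The first endothelial library had 31 of the 84 genes under 1 RPKM, or 36.9%, beside 36.7% of all genes, and the third had 1. Cox5b was at 1.36, 2.43 and 19.75 RPKM in the 3 libraries, Uqcrh at 4.30, 8.49 and 44.48, and Ndufb9 at 0.05, 11.88 and 21.26. Atp5b, at 84.6, 92.2 and 112.3, spread far less. The median log2 fold change was -0.19 for these genes and -0.18 for all genes. Without the first library it was 0.14, against -0.01 for all genes, and no gene was called. The libraries did not overlap for 2 genes that were higher and 4 that were lower, where 10.2% and 13% of all genes did so. After median-ratio scaling these were 5 and 5, against 12% and 11.4%, and 0 genes were called, against 3.59% higher and 0.572% lower. Without the third endothelial library the median log2 fold change as deposited was -0.45, against -0.36 for all genes. Cox5b, Ndufs3 and Uqcrh were then called lower, or 3.75%, against 1.65% of all genes.

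**Figure D3:**
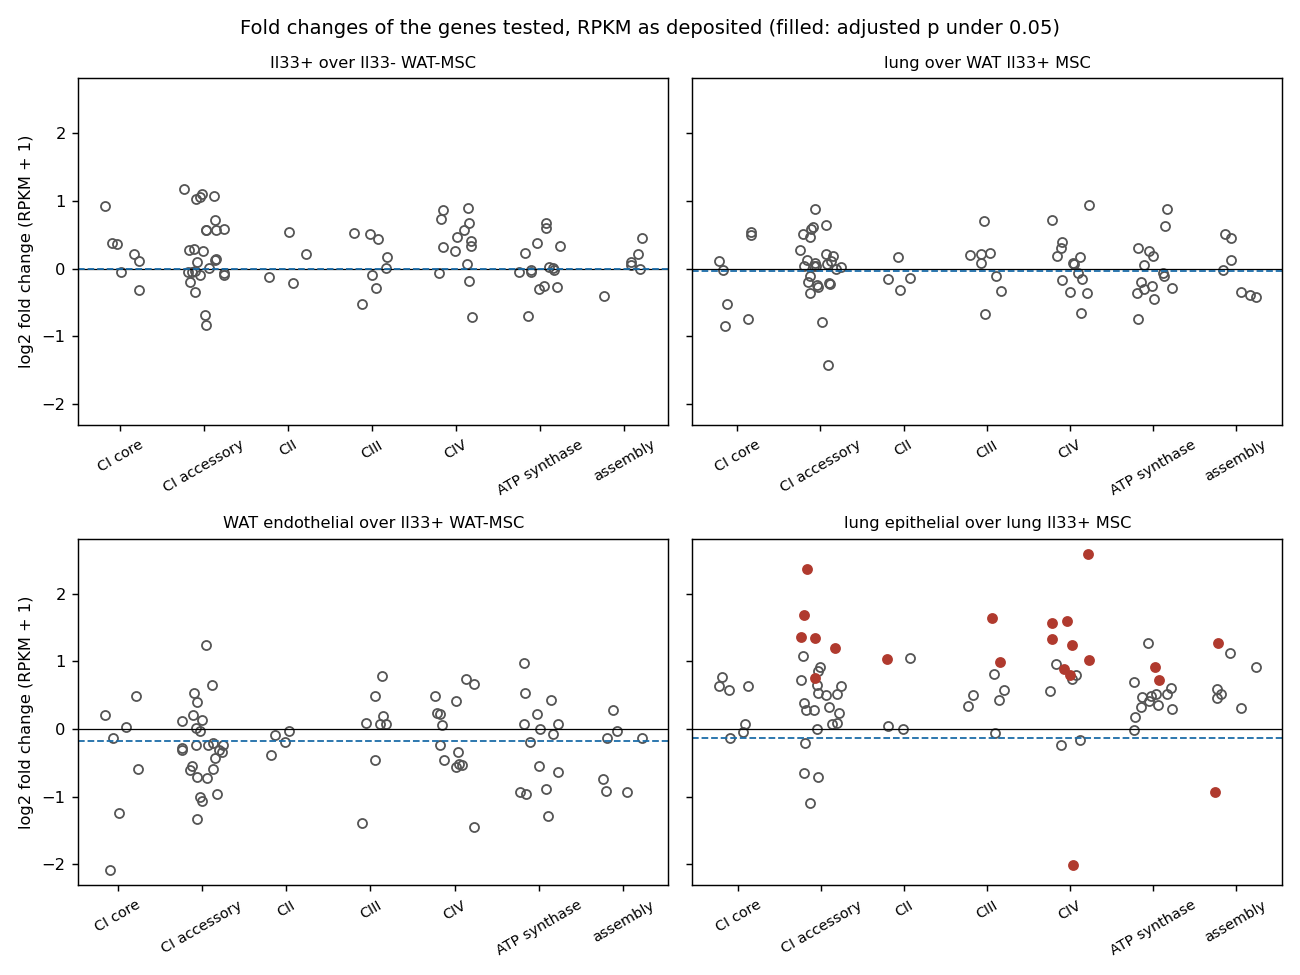
Log2 fold change of each gene tested, on the log2(RPKM + 1) scale as deposited, in the 4 comparisons, by complex (CI to CIV, ATP synthase, assembly factors). Filled points passed an adjusted p of 0.05 in limma, the dashed line is the median of all genes tested, and the calls, 20 higher and 2 lower, lay in the comparison of epithelium with lung Il33+ MSCs.

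Lung epithelium over lung Il33+ MSCs was the comparison in which genes were called. All 84 were tested, and 20 were called higher and 2 lower in limma, or 23.8% and 2.38%. Of all genes tested, 18.5% were called higher and 24.4% lower. The share called higher was thus near that of all genes, and the share called lower well under it. With median-ratio scaling 42 of 83 were higher and 1 lower, or 50.6% and 1.20%, where 24.6% of all genes were higher and 19.2% lower. That scaling moved the median log2 fold change of all genes from -0.13 to 0.15 and that of these genes from 0.57 to 0.85, so that in both the difference between these medians was 0.70. As deposited 70 of the 84 fold changes were above 0, and after scaling 78 of 83. The 20 genes called as deposited were all among the 42. The libraries did not overlap for 25 genes that were higher and 3 that were lower as deposited, where 22.2% and 31.2% of all genes did so, and after scaling for 45 and 2, where 30.3% and 23.9% did.

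Within the sequencing lanes the direction was the same. In the second lane, with 2 libraries of each population, the median log2 fold change was 0.63 for these genes and -0.06 for all genes. In the first, with 1 library of each, it was 0.46 against -0.33. Leaving out a library gave between 11 and 29 genes called higher. Without the first lung Il33+ MSC library there were 11 (13.3%, against 16.7% of all genes) and without the second 13 (15.9% against 16.6%), so that the share of these genes was then no longer above that of all genes. Without the third epithelial library there were 11 (13.4% against 9.18%), and without the first 29 (34.9% against 14.1%). With all 15 libraries in one model there were 10, or 11.9%, against 15.3% of all genes.

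The calls were also counted by complex. Of all genes tested, 18.5% were called higher and 24.4% lower as deposited, and 24.6% and 19.2% after median-ratio scaling. In complex IV and its relatives 8 of 15 genes were higher as deposited and 12 after median-ratio scaling, with 1 lower in each. These hold Cox6a2 as higher and Ndufa4l2 as lower, which passed the filter on low values through 1 population only and so had to differ. Among the complex I accessory subunits the counts were 6 and 10 of 27, and among its 7 core subunits 0 and 3. Complex II had 1 and 2 of 4, complex III 2 and 4 of 8, and ATP synthase 2 and 9 of 15. The median log2 fold change as deposited was 0.88 for complex IV and between 0.49 and 0.57 for the other groups. Whether the groups differ from each other was not tested.

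**Figure D4:**
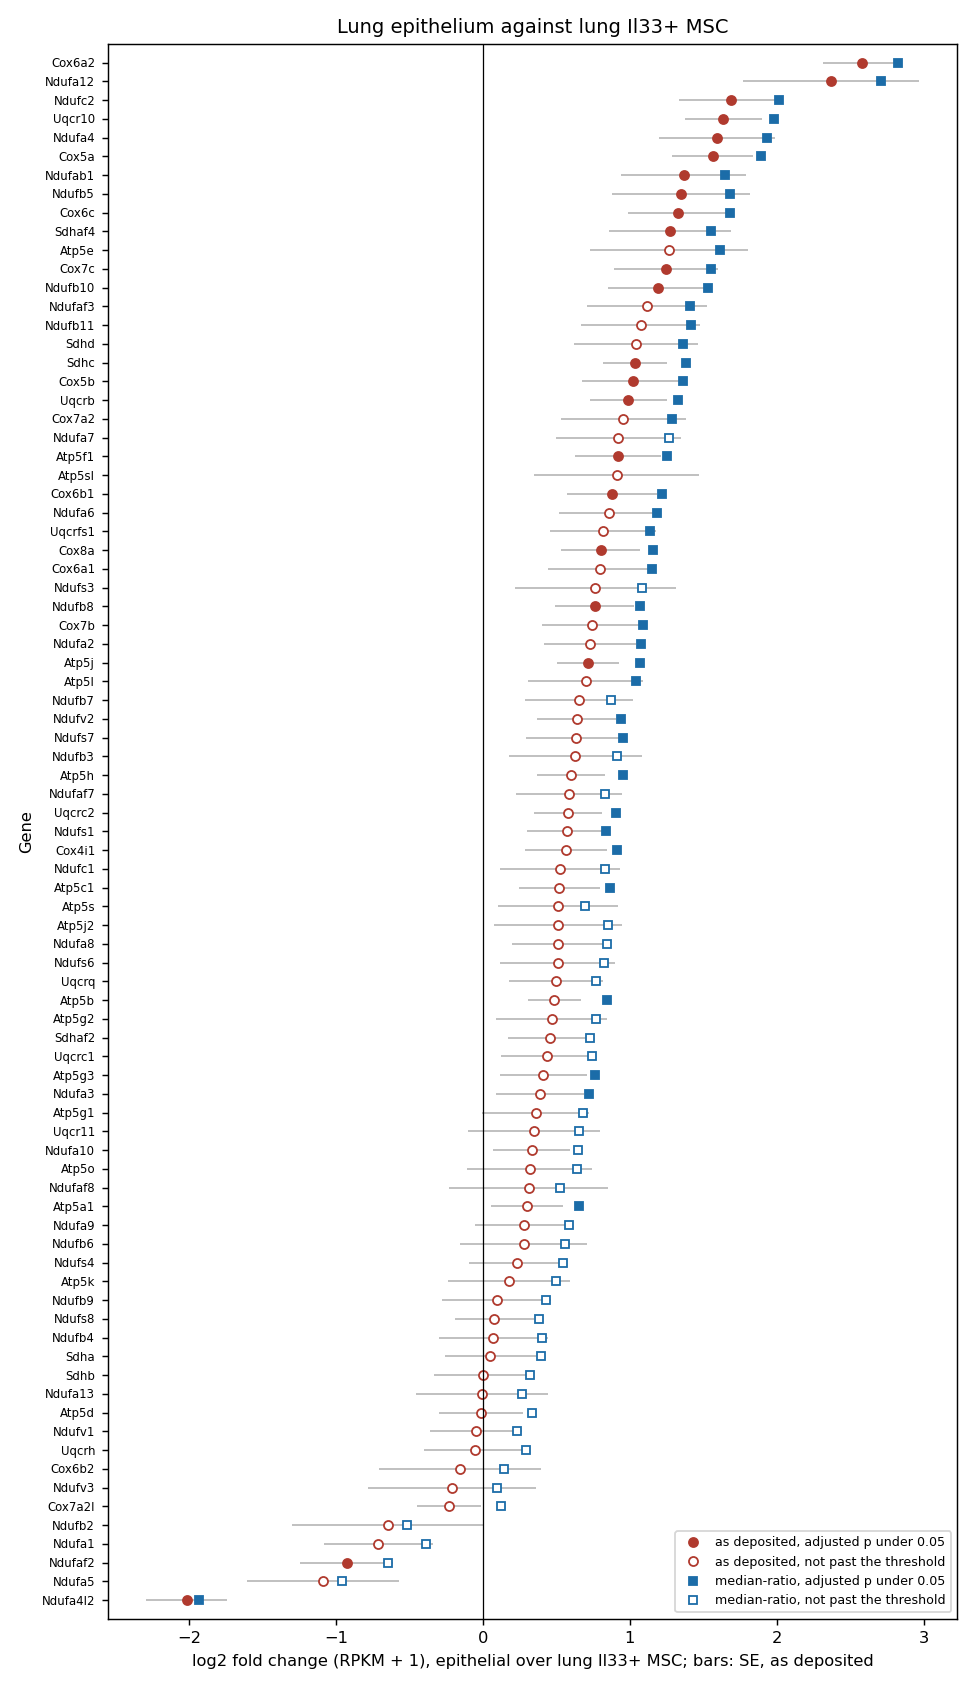
Log2 fold change of 83 of the genes, lung epithelium over lung Il33+ MSCs, as deposited (circles, with SE) and after median-ratio scaling (squares, where tested), filled where the adjusted p in limma was under 0.05. Most genes lay above 0 and further above it after scaling, with Cox6a2 at the top (2.58 as deposited) and Ndufa4l2 at the bottom (-2.01).

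Cox6a2, the form of the complex IV subunit VIa known from heart and skeletal muscle, had the largest fold change. It was at 6.72, 4.19 and 4.81 RPKM in epithelium and at 0, 0.09 and 0 in lung Il33+ MSCs. Of the 12 libraries outside epithelium it was listed at 0 in 10, and at most at 0.13. The log2 fold change was 2.58 ± 0.27, and it depends on the pseudocount. Cox6a2 passed the filter on low values through its epithelial libraries alone, so it had to differ and its test adds nothing to these values. The gene lies at chr7:128205435-128206366 (GRCm38), where it overlaps the annotated Itgad, an integrin gene of leukocytes that was not analysed here.

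Of the 4 muscle markers 2 were listed, and Acta1 and Ckm of striated muscle were not. Myh11 was at 0.66 to 1.43 RPKM in epithelium and 0.02 to 0.92 in lung Il33+ MSCs. Des was at 0 to 0.17 in epithelium and 0.53 to 1.11 in lung Il33+ MSCs. Whether muscle cells had a part in the Cox6a2 values was not tested. Leukocyte markers moved with the comparison. The 5 listed summed to between 683.8 and 1344 RPKM in epithelium and between 127.0 and 163.3 in lung Il33+ MSCs. Of this, Lyz2, which alveolar epithelial cells also make, accounted for 658.0 to 1301 and 105.4 to 144.9, and the other 4 for 25.7 to 42.4 and 18.4 to 21.6. Their part in the levels was not tested.

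Ndufa12 was the next largest, at 27.36, 19.01 and 18.74 RPKM in epithelium against 0.38, 7.16 and 6.22 in lung Il33+ MSCs. Its log2 fold change was 2.37 ± 0.60, with an adjusted p of 0.010. Ndufc2, a small subunit of the membrane arm, was at 11.83, 14.51 and 10.78 against 1.57, 3.11 and 5.67, a log2 fold change of 1.69 ± 0.35 with an adjusted p of 0.0036. For Uqcr10, a small subunit of complex III, the values were 23.25, 27.93 and 26.40 against 5.48, 7.27 and 10.96, with 1.64 ± 0.26 and an adjusted p of 8.02e-04. These genes did not overlap between both lung populations. Outside the lung, Uqcr10 reached 34.66 in the second Il33+ WAT-MSC library, while no library of another population reached the epithelial range of Ndufa12 or Ndufc2.

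In complex IV, Ndufa4 was at 18.68, 18.10 and 22.28 RPKM in epithelium and 2.55, 6.58 and 10.81 in lung Il33+ MSCs. Named for complex I, it is now known as a subunit of complex IV. Cox5a, which lies on the matrix side of the enzyme, was at 12.51, 12.79 and 21.94 against 5.35, 3.87 and 4.34. The log2 fold changes were 1.59 ± 0.40 and 1.56 ± 0.28, with adjusted p of 0.0093 and 0.0014. Cox5b, its zinc-binding neighbour, was higher by 1.02 ± 0.34 with an adjusted p of 0.037, and Cox6c by 1.33 ± 0.34 with one of 0.011. The others called higher in this complex were Cox7c, Cox6b1 and Cox8a.

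The remaining genes called higher were Ndufab1, the mitochondrial acyl carrier protein, with Ndufb5, Ndufb8 and Ndufb10 of the complex I membrane arm, Uqcrb of complex III, Atp5f1 and Atp5j of the ATP synthase stalk, Sdhc and the complex II assembly factor Sdhaf4. Sdhc, a membrane anchor of complex II, was at 37.28, 27.49 and 27.54 RPKM against 12.51, 15.44 and 15.28, with a log2 fold change of 1.04 ± 0.22 and an adjusted p of 0.0039. Cox5a, Cox6c, Ndufa12, Ndufa4, Ndufc2, Sdhc and Uqcr10 were called under all 16 alternatives.

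Of the 12 subunits listed for naming, Cox5a and Cox5b, neither of them catalytic, were called as deposited, and the others were not. Atp5b was at 112.52, 112.73 and 108.71 RPKM in epithelium and 76.87, 79.74 and 80.99 in lung Il33+ MSCs. These libraries did not overlap, and the log2 fold change of 0.49 ± 0.18 had an adjusted p of 0.054. After median-ratio scaling it was 0.84 ± 0.20, with an adjusted p of 0.0067 in limma. Atp5a1 was at 68.6 ± 19.8 and 54.0 ± 2.6, with adjusted p of 0.36 and, scaled, 0.018. Cox4i1, the largest nuclear subunit of complex IV, was at 25.8 ± 7.1 and 17.1 ± 4.8, and Uqcrfs1, the Rieske iron-sulphur protein, at 8.33 ± 2.04 and 4.58 ± 2.62. Both passed the test after scaling only, with adjusted p of 0.14 and 0.011 for Cox4i1 and 0.099 and 0.017 for Uqcrfs1.

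In complex I the core subunit Ndufs1, the large iron-sulphur protein, was at 2.69 ± 0.39 RPKM in epithelium and 1.5 ± 0.44 in lung Il33+ MSCs. Its adjusted p was 0.12 as deposited and 0.047 after scaling. Ndufv1, which binds NADH, was at 3.96 ± 1.37 and 4.07 ± 1.20. In complex II, Sdha, the flavoprotein, was at 27.3 ± 11.2 and 24.8 ± 2.6, and Sdhb, the iron-sulphur subunit, at 6.67 ± 1.11 and 7.14 ± 3.75. Uqcrc1, a core protein of complex III, was at 6.83 ± 2.63 and 4.68 ± 1.19. None of these genes other than Ndufs1 passed under either scaling. Atp5d, the delta subunit of ATP synthase, varied least of all 84 between population means as deposited, from 18.2 RPKM in Il33- WAT-MSCs to 21.4 in epithelium. After median-ratio scaling Sdha varied least, from 23.4 to 31.8.

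Ndufa4l2, a relative of Ndufa4 known as a target of hypoxia-inducible factors, went the other way. It was at 0, 0.51 and 0.15 RPKM in epithelium and at 4, 4.45 and 3.20 in lung Il33+ MSCs. The log2 fold change was -2.01 ± 0.28. It passed the filter through its lung Il33+ MSC libraries alone, so it too had to differ. Without Cox6a2 and Ndufa4l2 the counts were 19 higher and 1 lower of 82 as deposited, and 41 and 0 of 81 after scaling. In the WAT populations it ranged from 0.29 to 5.74, and the groups overlapped there. The gene lies at chr10:127509274-127517154 (GRCm38) and overlaps the annotated Shmt2. The other gene called lower was the complex I assembly factor Ndufaf2, at 2.69, 3.26 and 3.67 against 10.93, 6.59 and 4.58. Its adjusted p of 0.041 was not held under 11 of 15 alternatives, median-ratio scaling among them, where it was 0.14.

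Pairs of related genes were compared as shares within a library, which do not change with scaling. Of Cox6a1 and Cox6a2 together, Cox6a2 made up 9.90%, 7.01% and 4.48% of the summed RPKM in epithelium and at most 0.278% in any other library. Ndufa4l2 made up 61.1%, 40.3% and 22.8% of its sum with Ndufa4 in lung Il33+ MSCs, and 0%, 2.74% and 0.669% in epithelium. In Il33+ WAT-MSCs its share was 19.1% ± 5.8, in Il33- WAT-MSCs 10.4% ± 4.9 and in endothelium 18.3% ± 13.9. Over the 5 populations both shares had an adjusted p of 0.033 in an exact permutation test of all 15 libraries, over 1401400 partitions and 6 shares. With the libraries of any 1 replicate number left out, 10 remained and the adjusted p was between 0.18 and 0.36 in the same exact test. Cox6a2 was at or near 0 outside epithelium, so each partition keeping the epithelial libraries together gave as large a statistic, 15400 of the 1401400. Among 10 libraries such partitions are a larger part of all, and the Cox6a2 share could not pass. Its values with libraries left out thus decide nothing.

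The other pairs did not pass. Cox6b2, the form of subunit VIb known from testis, made up 41.2%, 18.4% and 42.7% of its sum with Cox6b1 in lung Il33+ MSCs and 0%, 4.19% and 16.5% in Il33- WAT-MSCs, with an adjusted p of 0.097 in the exact permutation test. As a log2 ratio with a pseudocount the same test gave 0.039. Cox7a2l outweighed Cox7a2 in every population, at 80.6% ± 4.6 in epithelium and 84.9% to 90.4% elsewhere, with an adjusted p of 0.19. Of the 3 genes for the identical c subunit of ATP synthase, Atp5g3 was the most abundant by the mean of the 5 population means, at 26.8 RPKM, and the adjusted p were 0.19 for the share of Atp5g1 and 0.52 for that of Atp5g2.

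**Figure D5:**
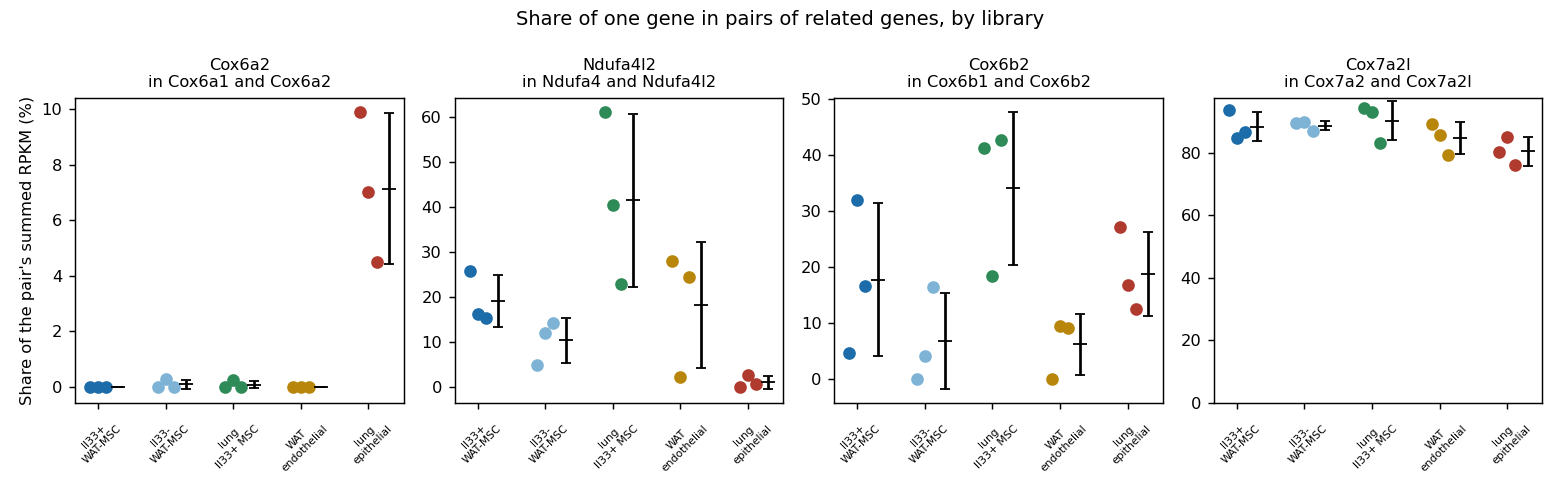
Share of the first-named gene in the summed RPKM of 4 pairs of related genes, in each library (points), with the population mean and SD (bars, n = 3), each panel with its own percent axis. Cox6a2 reached 4.48% to 9.90% in epithelium and at most 0.278% elsewhere, and Ndufa4l2 ran from 61.1% in a lung Il33+ MSC library to 0% in an epithelial library.

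The promoters of these genes were searched for short sequence elements. RefSeq windows of 300 bases, from 250 before to 50 after the start, were at hand for 71 of the 84 genes, as 77 windows (GRCm38.p6). Letters were searched on both strands, and a match is a description of the sequence only. The element of NRF1, a regulator of respiratory genes (GCGC, any base, then TGCGC), was in 22.1% of these windows, in 9.43% of the windows of all listed genes and in 4.60% of all 32851 windows. That of YY1 (ATGGCGG) was in 20.8%, 7.77% and 4.05%, and that of GABP (CCGGAAG) in 23.4%, 16.8% and 8.86%. The GC box (GGGCGG) was in 45.5%, against 62.7% and 35.7%, and the core of the hypoxia element (ACGTG) in 26.0%, against 25.1% and 19.6%.

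Of the 77 windows, 35 (45.5%) had no match to the NRF1, YY1 or GABP letters, against 70.7% of the windows of listed genes. Cox6c and Sdhc, called higher in epithelium under all alternatives, had no window here. The windows of Cox5a, Ndufa12, Ndufa4, Ndufc2 and Uqcr10, which were also called under all alternatives, were among the 35. No difference of these genes from the other windows was tested. Below are the 150 bases directly before the start for 3 of them and for Cox6a1, the abundant partner of Cox6a2, which did hold the NRF1 and GABP letters. They are written 5′ to 3′ on the gene's strand with matches in capitals, at chr10:94198885-94199034 (plus) for Ndufa12, chr6:11907451-11907600 (minus) for Ndufa4, chr11:4704345-4704494 (minus) for Uqcr10 and chr5:115348959-115349108 (minus) for Cox6a1. Capitals mark GC boxes in Ndufa12, and in Cox6a1 a GC box, the NRF1 letters, a second GC box and the GABP letters in that order.
Ndufa12: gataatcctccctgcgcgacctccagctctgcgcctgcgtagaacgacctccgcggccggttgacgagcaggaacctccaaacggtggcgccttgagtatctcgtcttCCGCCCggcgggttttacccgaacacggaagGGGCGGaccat
Ndufa4: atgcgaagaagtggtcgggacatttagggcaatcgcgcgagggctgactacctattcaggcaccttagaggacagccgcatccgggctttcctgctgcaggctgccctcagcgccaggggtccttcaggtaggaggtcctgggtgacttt
Uqcr10: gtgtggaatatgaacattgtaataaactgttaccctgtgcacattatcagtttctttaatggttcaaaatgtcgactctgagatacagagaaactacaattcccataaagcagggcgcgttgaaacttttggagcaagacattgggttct
Cox6a1: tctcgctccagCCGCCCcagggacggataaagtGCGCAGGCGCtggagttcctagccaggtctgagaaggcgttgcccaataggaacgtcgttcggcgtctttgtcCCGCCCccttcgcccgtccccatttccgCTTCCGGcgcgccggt

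Short transcripts were a further shared feature. The 91 transcripts had a median length of 780 bases in GENCODE, between 315 and 4715, where the median of all transcripts with a length was 2892. Under 1000 bases lay 63.7% of them and 8.74% of all. At these lengths fewer reads stand behind each RPKM, since 1 RPKM on 500 bases corresponds to between 21.4 and 30.4 alignments in these libraries. The median coefficient of variation over the 3 libraries was 37.3% to 39.2% for these genes and 23.8% to 30.5% for all genes in the stromal populations, 72.1% and 52.1% in endothelium, and 33.6% and 33.4% in epithelium. The genes lay on 19 chromosomes, and 28 of them overlapped another annotated gene.

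Other mitochondrial genes were counted in the same comparison of lung epithelium with lung Il33+ MSCs. Beside these counts stand the 18.5% of all genes called higher and 24.4% called lower in this comparison. Of 13 tricarboxylic acid cycle genes 4 were higher and 0 lower, with a median log2 fold change of 0.39. Suclg1 and Suclg2 of succinyl-CoA synthetase and Idh3a were among them, and Suclg1 was at 9.17 ± 0.80 RPKM against 2.35 ± 0.72. Of 59 mitochondrial ribosomal protein genes tested 12 were higher and 0 lower, with a median of 0.54, among them Mrpl43 at 12.5 against 2.23. Of 17 other assembly factors 2 were higher, Sco2 and Cox14, and Surf1 was lower. None of 5 electron carrier genes was called.

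Of 12 glycolytic genes tested 3 were higher and 2 lower, shares near those of all genes. Ldhb, the lactate dehydrogenase form that favours pyruvate, was at 91.4 ± 18.3 RPKM in epithelium and 5.30 ± 1.49 in lung Il33+ MSCs, a log2 fold change of 3.88 ± 0.26 with an adjusted p of 3.63e-06 in limma. Hexokinase 2, Hk2, was at 3.67 ± 1.503 and 37.2 ± 16.1, with -3.00 ± 0.34 and 8.61e-05. Pgk1 and Gpi1 were also higher, and Pfkp lower. Of 8 listed regulators of mitochondrial biogenesis 1 was higher and 3 lower. Ppargc1a, the coactivator PGC-1α, was at 8.72 ± 2.11 against 0.16 ± 0.02, with 3.04 ± 0.27 and an adjusted p of 1.93e-05. Gabpa and Gabpb1, the subunits of GABP, and Pprc1 were lower, Gabpa at 4.60 ± 1.54 against 8.66 ± 1.21. After median-ratio scaling 24.6% of all genes were called higher and 19.2% lower. The counts higher and lower were then 5 and 0 for the tricarboxylic acid cycle and 19 and 0 for the ribosomal proteins. They were 4 and 1 for the assembly factors, 0 and 0 for the carriers and 1 and 2 for the regulators. For glycolysis, with 13 genes tested, they were 6 and 2. None of these 6 lists had a called gene in the other 3 comparisons under either scaling.

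Bulk libraries do not tell fewer cells of a type from less RNA per cell, and the epithelial sort held several epithelial cell types. Many of these genes have near-identical processed copies elsewhere in the genome, so how reads were shared among copies makes their absolute levels uncertain. With 3 libraries a side, an exact permutation test of a single gene cannot go below a p of 0.1, so the calls rest on the spread that limma shares across genes.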

How the data were processed

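The authors amplified RNA from sorted cells with the Ovation RNA-seq kit of Nugen, sequenced it on a HiSeq4000, aligned reads with TopHat2 to mm10 in Partek Flow and deposited RPKM per RefSeq transcript, with the total of alignments per library. Whether counting used strand is not given in the sources used here. RPKM were summed per symbol, and compared in limma 3.58.1 (R 4.3.3) on log2(RPKM + 1) with a mean-variance trend, in genes at 1 RPKM or more in at least 3 of the 6 libraries compared. P-values were adjusted by Benjamini-Hochberg over all genes tested, with a threshold of 0.05. Median-ratio factors came from 8365 genes above 0 in all 15 libraries. Shares were tested by an exact permutation test over all partitions into 5 groups of 3. The limma fit was run on simulated data with independent noise and known changes, which cannot decide between the scalings. Alternatives were other scalings, pseudocounts, filters, a replicate block, lane, all libraries in one model, the most abundant transcript, and libraries left out. Named were isoform pairs, up to 5 called genes a direction with the largest fold changes, and the most abundant gene of a complex. Listed core and other subunits, and the least and most variable genes, were also named. Genes named where none was called, and other called genes, were chosen after their values were seen. The genes, lists and motifs were chosen with earlier results of these data known. Transcript lengths came from GENCODE vM21, positions and promoters from RefSeq (GRCm38.p6), matched by accession for all 84. Same-numbered libraries did not vary together throughout (correlations from -0.067 to 0.155), so numbers were not used as pairs. Intervals for depth were not given, since the files hold no counts. Some single-gene values are not reported here.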

Additional observations from a re-analysis of the deposited data

How the results depend on the processing

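For epithelium over lung Il33+ MSCs, 20 genes were higher as deposited (23.8%, against 18.5% of all genes). There were 42 with median-ratio scaling (50.6% against 24.6%) and 38 with quantile normalization (45.2% against 21.4%). With all 15 libraries in one model 10 were higher (11.9%, under the 15.3% of all genes). With both that model and median-ratio scaling there were 30 (35.7% against 20.4%). Leaving out a library gave 11 to 29, or 13.3% to 34.9%, against 9.18% to 17.6% of all genes. The 2 genes lower became 1 with median-ratio scaling, alone or with all libraries. There was also 1 with a pseudocount of 0.1, without a filter, with the replicate block and with all 15 libraries. With the filter at 5 RPKM there were 0, and with a library left out 0 to 1. Neither Ndufa4l2 nor Ndufaf2 passed the filter at 5 RPKM, so neither was tested there. Without a lung Il33+ MSC library Ndufa4l2 did not pass the filter either, and was not tested. The replicate block gave 30 higher (35.7%, against 19.4% of all genes), of which 18 were among the 20. It called none of the oxidative phosphorylation genes in the other 3 comparisons. With the lane in the model 2 genes were lower in lung than in WAT Il33+ MSCs (2.44%, against 1.99% of all genes). In WAT endothelium over Il33+ WAT-MSCs, 1 gene was lower with all 15 libraries (1.19%, against 3.16% of all genes). With those libraries and median-ratio scaling 2 were lower (Atp5c1 and Ndufs3, 2.38% against 2.89%). With a library left out 0 to 3 were lower, and the 3 made up 3.75% against 1.65%. No result changed sign among those called. The adjusted p of the Cox6a2 share was 0.097 with the replicate block and 0.2222 to 0.3598 without a replicate number, and that of Ndufa4l2 0.070 and 0.1841 to 0.3598. Without a replicate number too few partitions remained for the Cox6a2 share to pass, so those values decide nothing for it. That of Cox6b2 was 0.039 as a log2 ratio. The fits that combined scaling with all libraries, and those without the first endothelial library in other models, were chosen after seeing the data. Apart from the genes that did not pass a filter, the causes of these changes were not tested.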
